A study of Mus musculus with 6 samples.

Results

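Collagen and laminin chains are the proteins from which cells build basement membranes and the fibrils of connective tissue. The genes described here are those whose symbol on the array's platform annotation names a collagen alpha chain or a laminin alpha, beta or gamma chain. The rule used symbols and no measured difference, and each gene was read at its brightest probe set, by the mean of all 6 arrays. It gave 52 genes, 42 of collagens and 10 of laminins, out of 18193 genes measured, and they carry 101 of the 45037 probe sets tested. By structural class they are 5 laminin alpha, 3 laminin beta and 2 laminin gamma chains, 6 collagen IV chains, 11 fibrillar, 9 fibril-associated, 7 microfibril and anchoring, 3 short-chain, 4 transmembrane and 2 multiplexin collagens.

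RNA of E14TG2a cells, a mouse embryonic stem (ES) cell line kept on gelatin, was hybridised to Affymetrix mouse arrays. The 3 differentiating samples had been cultured for 3 days with no leukaemia inhibitory factor (LIF), the cytokine that holds mouse ES cells undifferentiated, and were sorted live as positive for surface 5T4. The 3 undifferentiated samples had been cultured with LIF at 1000 units per ml and were sorted as 5T4 negative. LIF and the sort therefore differ together and cannot be told apart, both groups were dissociated with trypsin and stained with the same antibody, and all samples come from 1 line. The deposited values are log2 values from RMA, a method that corrects background, normalizes arrays and summarises probe sets. A difference of 1 is a 2-fold change, and each difference given here is differentiating minus undifferentiated. A gene passed at a limma adjusted p under 0.1, the threshold of the study's methods, with adjustment over all probe sets tested. The labels and methods leave unstated whether the replicates were separate cultures, so p-values measure only the spread between these samples, which may be technical.

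Collagens are chains wound around each other into rope-like helices, and laminins are cross-shaped molecules made of one alpha, one beta and one gamma chain. In a basement membrane, laminins polymerise at the cell surface into a first sheet, a collagen IV network adds mechanical strength, and nidogen and perlecan tie the sheets together. Early embryos and ES cells are known for making laminin and collagen IV, whereas the fibrillar collagens are mainly products of mesenchymal cells.

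Promoters are shown for the collagen genes that turned out to be high on a single undifferentiated array, a pattern described further on. Of the 6 genes concerned, 4 had an entry in the RefSeq table of assembly GRCm38.p6, and 38 of the 52 genes had one. Each sequence runs 5′ to 3′ on the strand of its gene, from 250 bases before the start of transcription to 50 after it. Capitals mark a CCAAT box (CCAAT or its reverse complement ATTGG) and a GC box (GGGCGG or its reverse complement CCGCCC).
Col4a1 (chr8:11312777-11313076, minus strand): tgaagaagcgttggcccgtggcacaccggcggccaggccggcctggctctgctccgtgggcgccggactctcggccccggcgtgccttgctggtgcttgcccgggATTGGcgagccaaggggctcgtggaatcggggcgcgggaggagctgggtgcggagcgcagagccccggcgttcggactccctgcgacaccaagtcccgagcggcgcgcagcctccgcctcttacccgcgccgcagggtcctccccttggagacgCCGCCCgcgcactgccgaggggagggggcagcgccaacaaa
Col4a2 (chr8:11312555-11312854, plus strand): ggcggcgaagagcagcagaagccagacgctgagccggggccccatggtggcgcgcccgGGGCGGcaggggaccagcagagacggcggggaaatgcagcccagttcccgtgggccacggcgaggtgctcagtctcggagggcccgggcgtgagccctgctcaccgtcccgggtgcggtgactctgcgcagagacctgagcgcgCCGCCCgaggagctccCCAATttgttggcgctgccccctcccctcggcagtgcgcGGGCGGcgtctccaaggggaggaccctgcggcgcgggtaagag
Col1a2 (chr6:4505368-4505667, plus strand): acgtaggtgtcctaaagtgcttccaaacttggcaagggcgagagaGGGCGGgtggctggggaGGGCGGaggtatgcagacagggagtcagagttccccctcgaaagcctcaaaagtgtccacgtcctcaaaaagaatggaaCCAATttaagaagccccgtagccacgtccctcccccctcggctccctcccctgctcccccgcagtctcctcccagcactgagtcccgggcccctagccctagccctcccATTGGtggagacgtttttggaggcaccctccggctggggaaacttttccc
Col11a1 (chr3:114030290-114030589, plus strand): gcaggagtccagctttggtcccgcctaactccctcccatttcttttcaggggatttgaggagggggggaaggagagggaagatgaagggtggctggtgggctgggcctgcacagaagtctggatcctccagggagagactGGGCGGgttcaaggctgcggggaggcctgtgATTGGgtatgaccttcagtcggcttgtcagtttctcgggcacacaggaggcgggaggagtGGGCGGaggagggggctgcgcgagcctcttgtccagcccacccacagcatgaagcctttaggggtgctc

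Col4a1 and Col4a2 are neighbours that are transcribed away from each other. Their annotated starts lie 21 bases apart and the windows share 78 bases, so 1 GC box, at chr8:11312812-11312817, is capitalised in both. The Col4a1 window held 1 CCAAT box and 1 GC box, and the Col4a2 window held 1 and 3. In the Col1a2 window there were 2 of each, and in the Col11a1 window 1 CCAAT box and 2 GC boxes. A TATA box (TATAAA or TTTATA) was also searched, with 0 matches in these windows. Over 32851 promoter windows of the same 300 bases, 37.4% held a CCAAT box, 35.7% a GC box and 13.6% a TATA box. These matches describe letters and not binding, and the motifs do not overlap each other in letters.

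No collagen or laminin gene passed in differentiating against undifferentiated cells. The count was 0 of 52, where 2.25% of all genes passed (0.797% higher and 1.45% lower), and the smallest adjusted p from limma was 0.15, for Col2a1. With the further requirement of a log2 fold change of at least 1, 0.511% of all genes were called higher and 0.879% lower. None of the 101 probe sets passed either. At an unadjusted p under 0.05 there were 5 genes, or 9.62%, against 17.2% of all genes. The groups did not overlap for 8 genes, or 15.4%, against 23.5% of all genes. The differences were small as well, from -0.88 for Col13a1 to 1.38 for Col1a2. Only Col1a2 and Col5a2 reached a log2 fold change of 1 in either direction, which is 3.85% of the 52 genes against 4.11% of all genes. The difference was above 0 for 38 of the 52 genes, or 73.1%, against 53.6% of all genes, with a median of 0.18 against 0.02. The deposited table holds no detection calls, and 20 of the 52 genes lay among the dimmest 40% of probe sets, where signal and background cannot be separated. In bulk samples such as these, fewer cells that make a transcript and less transcript per cell cannot be told apart.

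**Figure D1:**
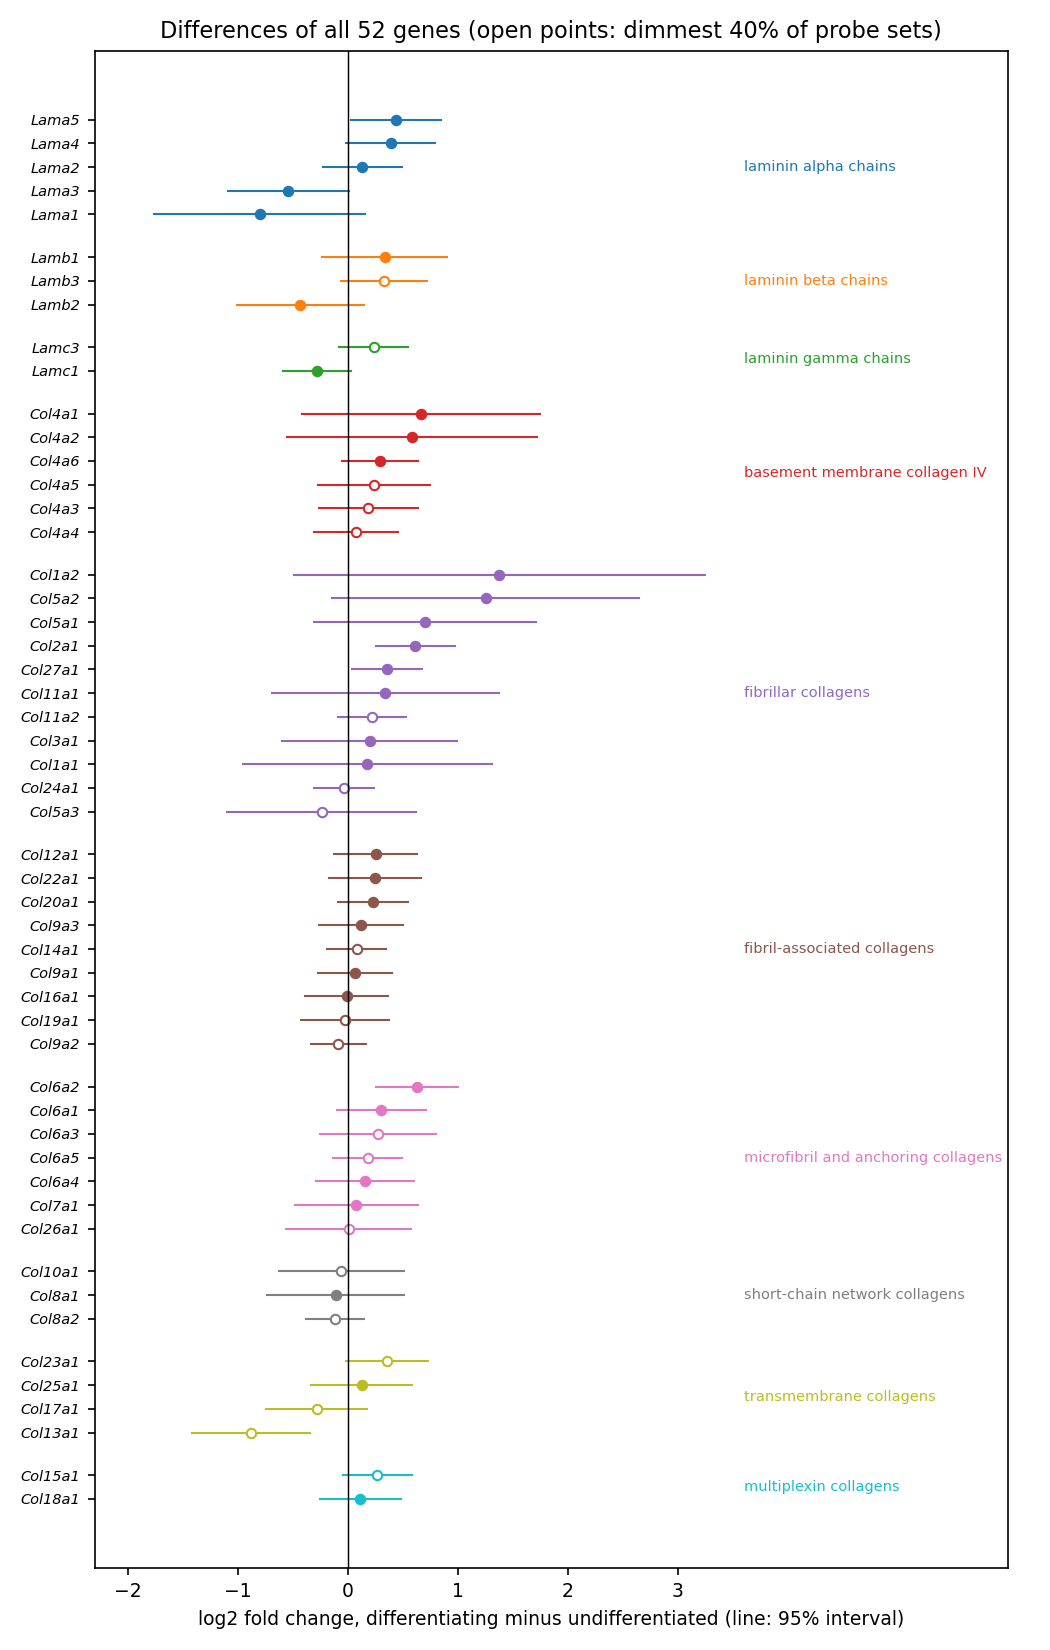
Log2 fold change of each of the 52 genes, differentiating minus undifferentiated, with its 95% interval, grouped and coloured by structural class. Open points are genes among the dimmest 40% of probe sets. The intervals of the fibrillar and collagen IV genes with the highest values are wide and cross 0.

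Of the 10 laminin chains 0 passed, and their differences lay between -0.80 and 0.44. Lama1, the alpha chain of the laminin of early embryonic basement membranes, had RMA values of 5.81, 7.16 and 7.28 in differentiating replicates 1 to 3 and of 7.96, 7.25 and 7.44 in undifferentiated replicates 1 to 3. Differentiating replicate 1 stood below all other arrays, and the remaining differentiating arrays lay at the lower end of the undifferentiated ones. The difference was -0.80 (standard error 0.40, adjusted p = 0.456), and without differentiating replicate 1 it was -0.33. Lama5, the alpha chain of the laminin on which ES cells are known to adhere and self-renew in culture, had 9.37, 9.49 and 9.37 in differentiating and 9.20, 9.09 and 8.61 in undifferentiated replicates. Every differentiating array was above every undifferentiated one, by a small margin, and the difference of 0.44 (95% interval 0.03 to 0.85) did not pass (adjusted p = 0.326). A second Lama5 probe set gave 0.43, and a dim one gave -0.02.

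Lamb1 and Lamc1 encode the beta and gamma chains that Lama1 and Lama5 products most often join. For Lamb1 the values were 10.68, 11.23 and 11.32 in differentiating and 10.91, 10.97 and 10.33 in undifferentiated replicates. The groups overlapped through differentiating replicate 1, and the difference was 0.34 (standard error 0.24, adjusted p = 0.603). All 4 Lamb1 probe sets had a positive difference, between 0.16 and 0.47. Lamc1 went the other way, with 8.96, 8.78 and 8.96 in differentiating and 9.15, 9.35 and 9.03 in undifferentiated replicates. Its groups did not overlap, and the difference was -0.28 (95% interval -0.59 to 0.03, adjusted p = 0.416), with -0.31 at its second probe set. The interval for Lamc1 leaves out a fall of 1 or more on the log2 scale, and those of Lama5 and Lamb1 leave out a rise of 1 or more.

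The other laminin chains belong to more specialised basement membranes, and their groups overlapped. Lamb2, the beta chain of kidney glomeruli and of the synapse between nerve and muscle, differed by -0.43 (adjusted p = 0.514). The skin laminin chains Lama3 and Lamb3 differed by -0.54 (adjusted p = 0.376) and 0.33 (adjusted p = 0.445), and Lama3 had a second probe set of the opposite sign, at 0.22. Lama4, of blood vessel walls, differed by 0.39 (adjusted p = 0.379), and Lama2, of muscle and peripheral nerve, by 0.13 (adjusted p = 0.758). A dim second Lama4 probe set gave -0.01. Lamc3, a gamma chain studied in brain and retina, differed by 0.24 (adjusted p = 0.505).

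**Figure D2:**
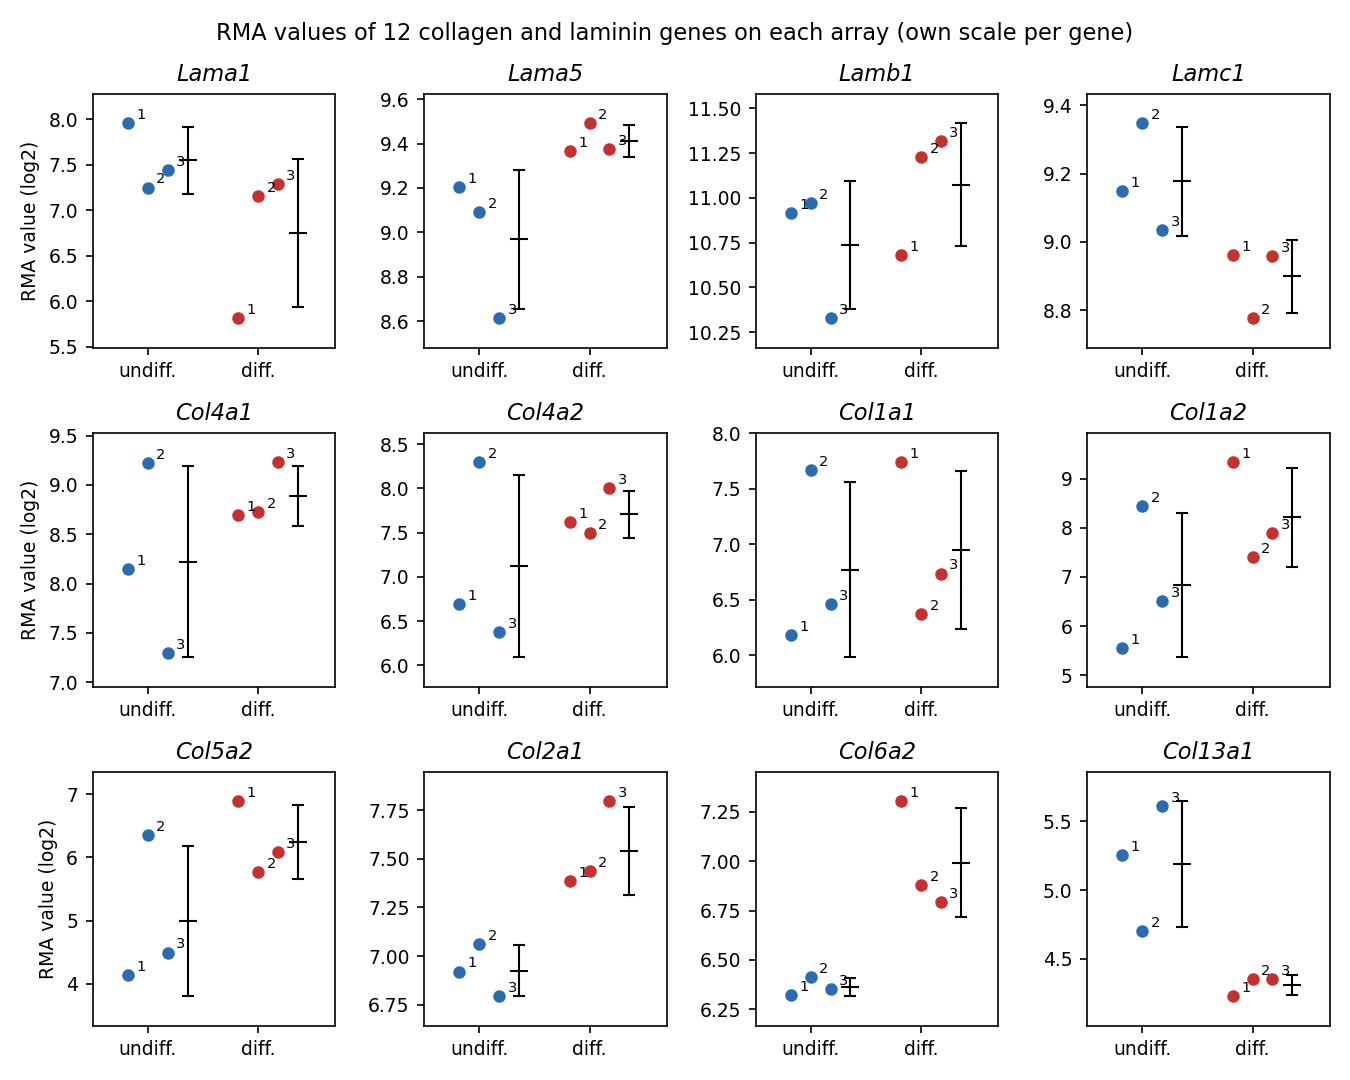
RMA value (log2) of each array for laminin, collagen IV and other collagen genes, each panel with its own scale. Points are arrays, numbered by replicate, and bars are the mean ± SD of 3 arrays. Undifferentiated replicate 2 stands with the differentiating arrays for Col4a1, Col4a2, Col1a2 and Col5a2. The groups do not overlap for Lama5, Lamc1, Col2a1, Col6a2 and Col13a1.

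All 6 collagen IV genes had a difference above 0, between 0.07 and 0.67, and none passed. Col4a1 and Col4a2 encode the chains of the collagen IV found in nearly every basement membrane. Col4a1 had values of 8.70, 8.73 and 9.23 in differentiating and of 8.14, 9.22 and 7.29 in undifferentiated replicates. Col4a2 had 7.62, 7.50 and 8.00 in differentiating and 6.70, 8.30 and 6.37 in undifferentiated replicates. In both genes undifferentiated replicate 2 lay at the level of the differentiating arrays, and the other undifferentiated arrays lay below all of them. Over all arrays the difference was 0.67 for Col4a1 (95% interval -0.41 to 1.75, adjusted p = 0.589), and a second Col4a1 probe set gave 0.51. For Col4a2 it was 0.58 (95% interval -0.55 to 1.72, adjusted p = 0.655). The divergent pair had the same array order among undifferentiated samples, with replicate 2 highest and replicate 3 lowest. That order was not particular to the pair, since Col4a5, Col4a6, Col5a1 and Col11a1 had it too. In Col1a2 and Col5a2 replicate 1 was the lowest.

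The remaining collagen IV chains form networks of restricted tissues such as the kidney filter, and each stands beside a collagen IV neighbour in the RefSeq annotation. Col4a3 and Col4a4 differed by 0.19 and 0.07, and Col4a5 and Col4a6 by 0.24 and 0.29 (adjusted p = 0.726, 0.884, 0.694 and 0.452). Their arrays overlapped, and 3 of the 4 genes were among the dimmest 40% of probe sets. Col4a6 was the exception.

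The fibrillar collagens held the largest differences and also the widest spread between replicates. Col1a2, one of the chains of collagen I, the main fibril protein of connective tissue, had values of 9.34, 7.41 and 7.89 in differentiating and of 5.55, 8.44 and 6.51 in undifferentiated replicates. The undifferentiated arrays thus spanned nearly 3 log2 units, and replicate 2 exceeded differentiating replicates 2 and 3. The difference of 1.38 (standard error 0.79, adjusted p = 0.516) was within that spread. Its partner chain Col1a1 had 7.74, 6.37 and 6.73 in differentiating and 6.18, 7.67 and 6.46 in undifferentiated replicates. Differentiating replicate 1 and undifferentiated replicate 2 stood apart from the others in the same way, and the difference was 0.18 (adjusted p = 0.91). Col3a1, the collagen of extensible tissues such as vessel walls, differed by 0.20 (adjusted p = 0.846).

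Collagen V is the minor collagen that starts and limits collagen I fibrils. Col5a2 had values of 6.89, 5.76 and 6.09 in differentiating and of 4.13, 6.35 and 4.49 in undifferentiated replicates. Apart from undifferentiated replicate 2, every undifferentiated array was more than 1 unit below every differentiating one. The difference was 1.25 (standard error 0.59, adjusted p = 0.42), and it was 0.21 at a dimmer Col5a2 probe set. Col5a1, the other main collagen V chain, differed by 0.70 (adjusted p = 0.54), with 0.69 and 0.89 at its other probe sets. Col3a1 and Col5a2 are neighbours on chromosome 1, and their differences of 0.20 and 1.25 lay apart by more than those of Col4a1 and Col4a2, a comparison that was not tested.

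A different pattern was seen in Col2a1, Col6a2 and Col13a1, whose groups did not overlap. Col2a1, the main collagen of cartilage, had values of 7.38, 7.44 and 7.80 in differentiating and of 6.92, 7.06 and 6.80 in undifferentiated replicates. The difference was 0.61 (standard error 0.15, 95% interval 0.26 to 0.97, adjusted p = 0.15), or 1.53-fold. Col6a2, a chain of the beaded collagen VI microfibrils around cells, had 7.31, 6.88 and 6.79 in differentiating and 6.32, 6.41 and 6.35 in undifferentiated replicates. The undifferentiated arrays of Col6a2 lay within 0.1 units of each other, and all differentiating arrays lay above them. The difference was 0.63 (95% interval 0.26 to 1.00, adjusted p = 0.153), and a second probe set gave 0.36. Its neighbour Col6a1, another collagen VI chain, differed by 0.31 (adjusted p = 0.503) with overlapping groups. Col13a1, a collagen that spans the plasma membrane and is known at the synapse between nerve and muscle, was the member with the lowest difference. It had 4.23, 4.36 and 4.35 in differentiating and 5.26, 4.70 and 5.61 in undifferentiated replicates, a difference of -0.88 (95% interval -1.41 to -0.34, adjusted p = 0.163). The differentiating Col13a1 values lay close together, while the undifferentiated ones spread about as widely as the groups differed, and the probe set is among the dimmest 40%.

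Among the other classes the differences were smaller and none passed. Col15a1, a multiplexin of basement membrane zones, differed by 0.27 (adjusted p = 0.445) with groups that did not overlap, and its relative Col18a1, whose protein releases endostatin, by 0.11 (adjusted p = 0.801). The fibril-associated collagens ran from -0.08 to 0.25, led by Col12a1 (0.25) and Col22a1 (0.25). At the brightest probe sets, the short-chain collagens were the only class with every difference below 0, and these were small. The differences were -0.12 for Col8a2 and -0.11 for Col8a1, which build hexagonal lattices in the cornea and vessel walls. Col10a1, the collagen of hypertrophic cartilage, differed by -0.06. The other Col8a1 probe sets had the opposite sign, at 0.14 and 0.11. Col23a1, a transmembrane collagen, differed by 0.36 (adjusted p = 0.385), but by -0.02 at both of its other probe sets. The epithelial anchor Col17a1 and the brain collagen Col25a1 of the same class differed by -0.28 and 0.13. A dim second Col25a1 probe set gave 0.35 (adjusted p = 0.21) without overlap. Differences of the microfibril and anchoring class ran from 0.01 for Col26a1 to the 0.63 of Col6a2, and those of the fibrillar genes Col11a2, Col24a1 and Col5a3 were 0.22, -0.03 and -0.24. Non-overlapping groups were also found for Col27a1, a fibrillar collagen of cartilage (0.36 and, at a second probe set, 0.29), and, by a margin of under 0.1, for Col8a2. Of the 33 genes with several probe sets, 22 had differences of 1 sign at all of them and 11 had both signs, and 19 genes had 1 probe set.

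Several collagen genes were high on 1 undifferentiated array. In undifferentiated replicate 2, 6 of the 52 genes were above both other undifferentiated arrays by at least 1 on the log2 scale, which is 11.5% against 1.36% of all genes. These were Col1a2 (1.93 above the next array), Col5a2 (1.86), Col4a2 (1.61), Col11a1 (1.53), Col1a1 (1.21) and Col4a1 (1.08). Col11a1 encodes a chain of collagen XI, which starts the thin fibrils of cartilage. It differed between groups by 0.34 (adjusted p = 0.786), and by -0.01 at a dimmer probe set. The 6 genes are collagen IV and fibrillar genes only, with 0 of the 10 laminins among them. In differentiating replicate 1 there were 2 such genes, Col1a2 (1.45) and Col1a1 (1.01), or 3.85% against 0.671% of all genes, and Lama1 was below both other arrays of its group, 1.92% against 0.956% of all genes. Undifferentiated replicate 1 had 1 gene, Col5a3, a collagen V chain, or 1.92% against 1.78% of all genes. The other 3 arrays had none that stood above.

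**Figure D3:**
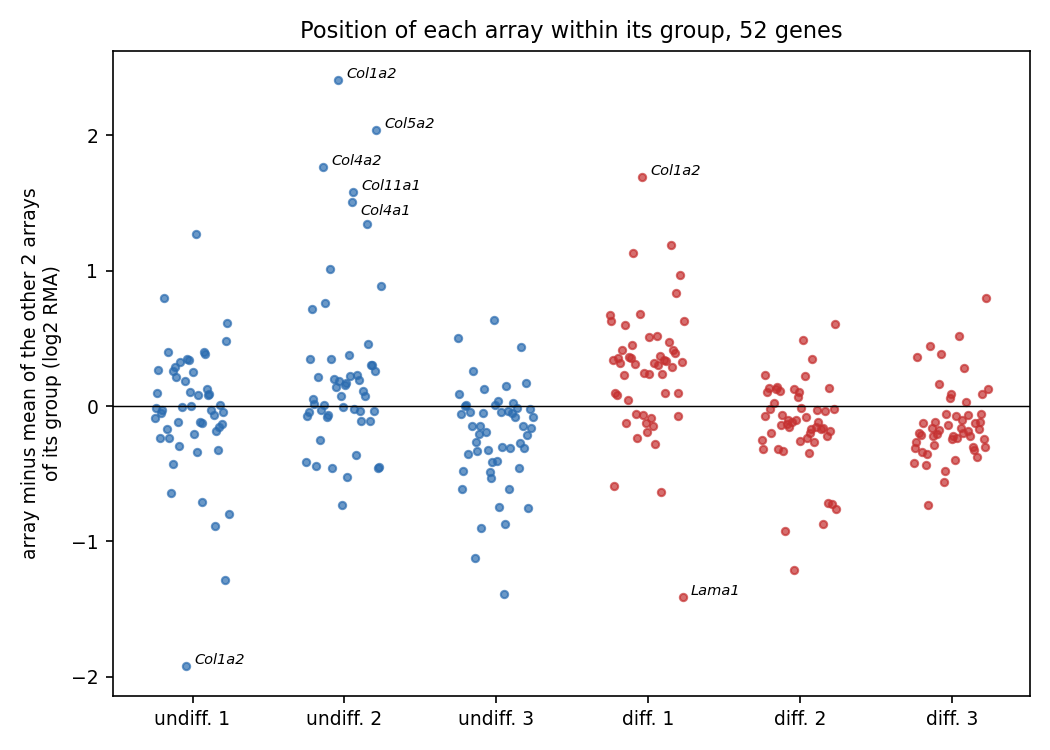
Each point is 1 of the 52 genes on 1 array, plotted as the array's log2 RMA value minus the mean of the other 2 arrays of its group. Collagen IV and fibrillar genes named in the plot rise above the rest in undifferentiated replicate 2, and Col1a2 does so in differentiating replicate 1.

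Acta2, Tagln and Serpinh1 were among the other genes high on that array. Acta2, the smooth muscle actin gene, had values of 12.74, 10.72 and 12.03 in differentiating and of 7.62, 12.28 and 10.29 in undifferentiated replicates. Tagln, an actin-binding protein gene of the same cells, had 12.78, 11.99 and 12.61 in differentiating and 8.04, 12.45 and 9.94 in undifferentiated replicates. Undifferentiated replicate 2 again lay with the differentiating arrays, as it did for Serpinh1, the collagen-specific chaperone, with 10.43 against 8.62 and 8.99. Most other folding and modifying enzymes did not follow, since among undifferentiated arrays 12 of 17 such genes were highest in replicate 1 and 4 in replicate 2. Acta2 and Tagln are in a list of 13 fibroblast markers of which 0 passed, and whose summed values were 77.96 to 82.27 in differentiating replicates, 78.52 in undifferentiated replicate 2, and 71.69 and 72.33 in the other undifferentiated ones. Without Acta2 and Tagln the other 11 markers summed to 55.25 to 56.75 in differentiating replicates. In undifferentiated replicates they summed to 56.03, 53.79 and 52.10, so undifferentiated replicate 2 no longer stood apart. Leaving out genes that were high on that array lowers its sum by construction. Among undifferentiated arrays, 6 of these 11 were highest in replicate 1 (Thy1, Pdgfrb, Fbln2, Twist1, Prrx1 and Fap). Replicate 2 was highest for 4 of the 11 (Dcn, Postn, Twist2 and S100a4). Groups without overlap and with higher differentiating values were found for 3 of the 13, against 10.7% of all genes. These were Dcn (0.66), Postn (0.43) and Lum (0.22). Among the dimmest 40% of probe sets were 4 of the 13, Lum included. The part of cell composition in the collagen differences was not tested.

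Leaving out undifferentiated replicate 2 raises the difference of these genes by construction, since the highest value of the lower group is removed. Without it 3 of the 52 genes passed, or 5.77% against 4.68% of all genes. Col5a2 was higher by 1.93 (standard error 0.34, adjusted p = 0.0625 from limma), Col4a2 was higher by 1.17 (standard error 0.20, adjusted p = 0.0617), and Col13a1 was lower, with a difference of -1.12 (adjusted p = 0.0433). Col1a2 (2.18, adjusted p = 0.163) and Col4a1 (1.17, adjusted p = 0.143) did not pass. Without differentiating replicate 1, 0 of the 52 genes passed, against 3.12% of all genes. Weighting arrays by their quality as limma estimates it let 9 genes pass, or 17.3% against 19.7% of all genes: Col2a1, Col6a2, Lama5, Lamb1, Col11a2 and Col23a1 higher, and Col13a1, Lama3 and Lamc1 lower. In that fit Col5a2 had 0.73 and Col4a2 0.46, and neither passed. Of those 9 genes and the 3 that passed without undifferentiated replicate 2, Col13a1 was the 1 in common. For Col13a1 that array was the lowest of its group (4.70 against 5.26 and 5.61). Any fit without undifferentiated replicate 2 therefore enlarges the fall of Col13a1 by construction too. Without both undifferentiated replicate 2 and differentiating replicate 1, Col5a2 and Col11a1 passed as higher and Col13a1 as lower, again 5.77% against 5.58% of all genes.

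**Figure D4:**
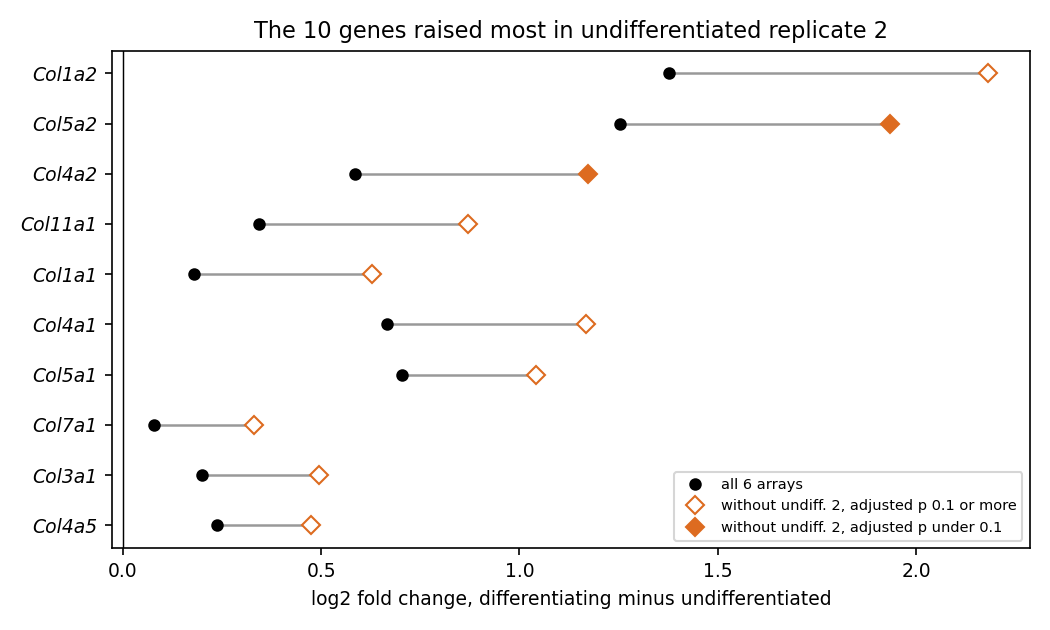
Log2 fold change, differentiating minus undifferentiated, of the genes that stood highest above the next array in undifferentiated replicate 2, over all 6 arrays (circles) and without that array (diamonds, filled where the limma adjusted p was under 0.1). Every difference is larger without the array, from 1.25 to 1.93 for Col5a2 and from 0.58 to 1.17 for Col4a2.

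Among genes whose products fold, process or bind these chains, 6 of 59 passed, 2 higher and 4 lower, where 2.25% of all genes passed. Whether this share differs from that of the chains was not tested. Pcolce encodes an enhancer of the protease that trims the end of procollagens. It had values of 8.63, 7.78 and 8.26 in differentiating and of 10.92, 10.25 and 10.34 in undifferentiated replicates. All differentiating arrays lay well below the undifferentiated ones, and Pcolce fell by 2.28 (standard error 0.26, adjusted p = 0.0428), or 4.85-fold, with -2.21 (adjusted p = 0.0538) at its second probe set. Pcolce2, a second such enhancer, had 7.44, 7.12 and 7.16 in differentiating and 8.24, 8.37 and 8.57 in undifferentiated replicates. It too had separate groups and fell by 1.16 (standard error 0.15, adjusted p = 0.0462). Of 11 processing and crosslinking genes these were the ones that fell, and 9 had a difference above 0. Pxdn (1.27, adjusted p = 0.132) and Adamts3 (0.58, adjusted p = 0.183) were higher without overlap and did not pass. Tll1, which encodes a procollagen-trimming protease, was higher by 0.78 (adjusted p = 0.0995) at a probe set among the dimmest 40%. Tll1 missed the threshold in most alternatives, among them the replicate block (adjusted p = 0.159) and median centring (adjusted p = 0.103). With undifferentiated replicate 3 left out, Pcolce and Pcolce2 had an adjusted p of 0.190 and 0.206, and they also missed the threshold without either differentiating replicate 2 or 3.

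Nid1 encodes nidogen, the link between laminin gamma chains and collagen IV. It had values of 7.50, 6.68 and 7.09 in differentiating and of 9.45, 8.52 and 8.88 in undifferentiated replicates. The lowest undifferentiated array was 1 unit above the highest differentiating array, and Nid1 fell by 1.86 (standard error 0.29, adjusted p = 0.0682), or 3.63-fold. A second Nid1 probe set gave -1.51 (adjusted p = 0.0956). It was the only one of 16 basement membrane partners that passed. Its relative Nid2 differed by -0.34 (adjusted p = 0.674). The adjusted p of Nid1 was 0.264 without undifferentiated replicate 3 and 0.303 without differentiating replicate 2.

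Of 17 folding and modifying enzymes, Crtap fell by 1.08 (adjusted p = 0.0755) and P3h2 was higher by 0.77 (adjusted p = 0.0939). Crtap encodes a partner of prolyl hydroxylases that modify fibrillar collagens, and P3h2 encodes a prolyl hydroxylase that acts on collagen IV. Crtap had 8.41, 7.77 and 8.03 in differentiating and 9.25, 9.02 and 9.18 in undifferentiated replicates, and P3h2 had 5.63, 6.05 and 6.00 against 5.03, 5.16 and 5.19. Neither gene had overlapping groups. P3h2 missed the threshold with the replicate block (adjusted p = 0.103), after a second quantile normalization (0.122) or median centring (0.119), with a trended variance (0.102) and without undifferentiated replicate 1 (0.128) or 2 (0.114). Crtap missed it after a second quantile normalization (adjusted p = 0.114) and without undifferentiated replicate 1 (0.104). Of 15 laminin and collagen receptors 0 passed. Ddr1, a collagen-activated kinase, differed by 1.05 (adjusted p = 0.308), and Itga3, an integrin subunit of laminin receptors, by 0.73 (adjusted p = 0.608). Itga3 had 10.10, 9.04 and 9.48 in differentiating and 8.36, 10.00 and 8.07 in undifferentiated replicates. There too undifferentiated replicate 2 lay with the differentiating arrays. With undifferentiated replicate 3 left out, or else differentiating replicate 2 or 3, 0 of the 59 genes passed. Without undifferentiated replicate 1, 3 passed.

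**Figure D5:**
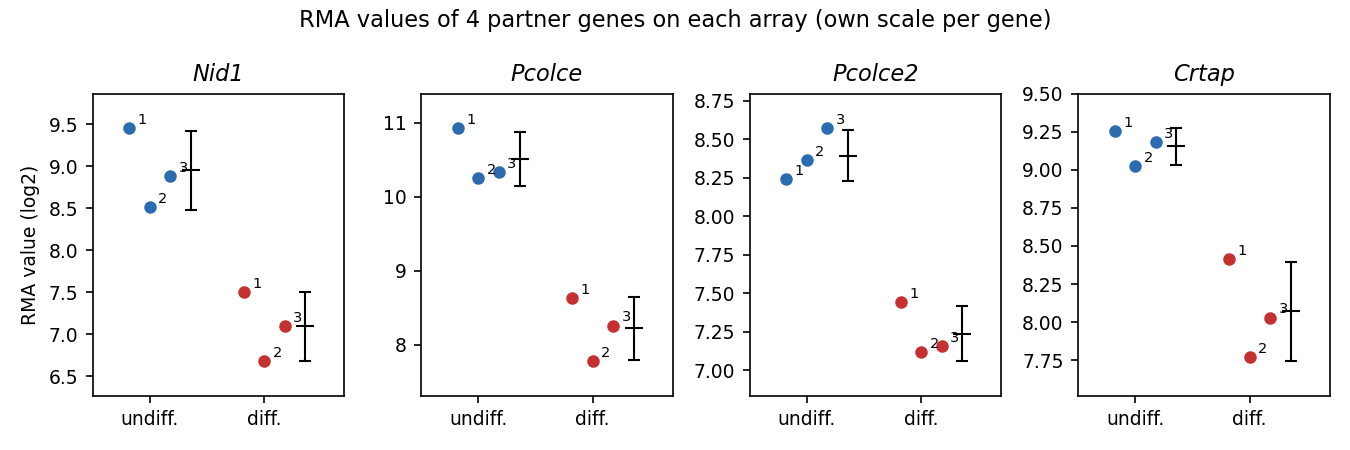
RMA value (log2) of each array for Nid1, Pcolce, Pcolce2 and Crtap, each panel with its own scale. Points are arrays numbered by replicate, bars are the mean ± SD of 3 arrays, and the groups do not overlap in any panel.

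Markers of the cells that make these chains in embryos were measured beside them. Of 16 markers in a list of primitive, parietal and visceral endoderm genes, 0 passed. Parietal endoderm is known for its output of laminin and collagen IV. The transcription factor genes Gata4, Gata6 and Sox17 of the list were nearly level, at -0.03, 0.07 and 0.11. Higher differentiating values without overlap were found for 3 of the 16, against 10.7% of all genes. These were Dab2, Pth1r (0.90) and Pdgfra (0.53). The difference was above 0 for 12 of the 16, against 53.6% of all genes. Dab2, an endocytic adaptor gene of the list, had 7.89, 8.43 and 8.58 in differentiating and 5.63, 7.45 and 5.94 in undifferentiated replicates (1.96, adjusted p = 0.141), again with undifferentiated replicate 2 the highest of its group. Cubn, a receptor gene of visceral endoderm, differed by 1.89 (adjusted p = 0.305). The summed values of that list were 84.61 to 89.49 in differentiating and 79.41 to 84.26 in undifferentiated replicates. Of 10 blood and endothelial markers 0 passed, with Vwf at -1.17 and Tek at -0.92, and their sums were 44.24 to 46.27 and 46.44 to 49.17. All 14 markers of undifferentiated ES cells had a difference below 0, and 6 passed, among them Tbx3, Klf4, Tfcp2l1 and Pou5f1. Lower differentiating values without overlap were found for 13 of the 14, against 12.8% of all genes. The sums of the 14 were 113.5 to 135.7 in differentiating and 150.2 to 158.2 in undifferentiated replicates. Of the 6, 0 passed with undifferentiated replicate 3, or differentiating replicate 2 or 3, left out. The part of such cells in the collagen and laminin values was not tested. Tpbg, the gene of 5T4, had 6.71, 7.52 and 7.97 in differentiating and 5.94, 6.76 and 5.68 in undifferentiated replicates. The difference was 1.27 (adjusted p = 0.22), with undifferentiated replicate 2 the highest of its group. Its other probe sets gave 1.39 (adjusted p = 0.118) and 0.38 (adjusted p = 0.237), both without overlap.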

How the data were processed

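The authors deposited 1 column of log2 values for each sample, made by RMA (affy library, version not given in the sources used here). They were used as given. The table holds 45101 probe sets, less 64 controls. Gene names come from the platform annotation. All 52 member genes were found in RefSeq (GRCm38.p6) by gene ID, with the same symbol. Array medians lay between 5.54 and 5.65. The number of arrays limits the precision.

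The comparison was fitted over all probe sets by lmFit and eBayes of limma 3.58.1 (R 4.3.3), with Benjamini-Hochberg adjustment and no replicate block, since the methods name none. The same steps were tested on simulated data. A gene was represented by its brightest probe set.

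The members, partner lists (folding enzymes, processing enzymes, basement membrane partners, receptors), marker lists, tests and alternatives were chosen with earlier results of these data known. Named by rule were all laminin and collagen IV chains, members without overlap and with a difference of at least 0.5, up to 2 members of largest difference per class, up to 4 passing genes per partner or marker list (otherwise the 2 of largest difference), Col1a1, Col1a2, Col3a1 and Tpbg. Other genes were named after their values were seen. The alternatives were a replicate block, the dimmest 40% of probe sets left out, array weights, controls kept, arrays centred on their median, quantile normalization repeated, eBayes with trend and robust options, leaving out each array, an adjusted p under 0.05, the mean of a gene's probe sets, and any passing probe set. Leaving out both differentiating replicate 1 and undifferentiated replicate 2 was added after the values were seen.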

Additional observations from a re-analysis of the deposited data

How the results depend on the processing

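Of the 31 named members, over 16 alternatives, 464 of 487 values kept their direction and side of the threshold, 13 in 10 members came to pass and 10 in 4 members changed sign. No collagen or laminin gene passed with a replicate block, without dim probe sets, with controls kept, after a second quantile normalization or median centring, with a trended variance, at an adjusted p under 0.05, or by the mean of, or any of, a gene's probe sets.

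Over all genes 93 were called higher and 160 lower. With array weights the counts were 406 and 392, with 9 members, 17 partner and 18 marker genes passing, where 0, 6 and 6 passed before. Of all genes 19.7% passed in that fit, where 2.25% passed before. The weights ran from 0.298 for differentiating replicate 1 to 5.11 for differentiating replicate 2. Without differentiating replicate 1 and undifferentiated replicate 2 together the counts were 416 and 335, with 3 members (Col11a1, Col13a1 and Col5a2) and 15 markers. There 5.58% of all genes passed. At an adjusted p under 0.05 there were 14 and 45 genes, 2 partners and 1 marker. A second quantile normalization left 3 partners, and the mean of all probe sets gave 10 markers. Leaving out 1 array gave 0 to 326 genes higher, 0 to 284 lower, 0 to 3 members, 0 to 8 partners and 0 to 13 markers. The most members passed without undifferentiated replicate 2, where 4.68% of all genes passed.

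Signs changed with array weights for Col1a1 (-0.39) and Col3a1 (-0.29), with the mean of all probe sets for Col8a1 (0.045), and with 1 array left out for Col1a1 (-0.22 to 0.63), Col3a1 (-0.068 to 0.49), Col4a4 (-0.063 to 0.19) and Col8a1 (-0.39 to 0.13). The causes were not tested.

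The deviations of same-numbered arrays from their group means had correlations of 0.205, -0.11 and 0.115. Those of differently numbered arrays ran from -0.315 to 0.316. With 3 arrays per group these values cannot decide whether the numbers pair the samples. With the replicate block 117 genes were higher and 190 lower, and 0 members, 4 partners and 6 markers passed.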
